A study of Mus musculus with 6 samples.

Results

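Tdrd9 and 8 further genes of the tudor and piwi pathway, Tdrd1, Tdrd5, Tdrd7, Piwil2, Piwil4, Ddx4, Mael and Asz1, were followed in Mll-AF9 leukemia to ask whether Tdrd9 changed alone when Rpl22 was lost. The 9 genes were taken by name out of 51497 genes listed, of which 29374 had any read, and the list was built around Tdrd9, which had been selected on its difference in expression between these same libraries. The samples were 6 poly(A) RNA libraries of CD11b+Gr1+ splenocytes, 3 from Rpl22+/+ and 3 from Rpl22-/- mice. All of these mice carried the MLL-AF9 knockin oncogene, were tumor bearing and came from stock backcrossed to C57BL/6, and the cells were sorted by flow cytometry on the myeloid antigens CD11b and Gr1. Neither their age nor their number is given in the labels, and the study's legends describe leukemia explants by 1 mouse identifier per genotype, so the p-values below measure only the spread between libraries, which may be technical.

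The piRNA pathway is a small RNA defense of the germline against transposons. Piwi proteins bind the small RNAs, Tudor proteins dock onto the methylated arginines of Piwi proteins and hold the machinery together in granules near the mitochondria, and helicases remodel the RNA. TDRD9 combines a DExH-box helicase with a Tudor domain and is needed in male germ cells to keep LINE-1 transposons silent, and the pathway is best known from the testis. The small RNAs themselves and the transposons were not measured here.

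The windows of 250 bases before the annotated start are shown first for 4 genes, because promoters of germline genes often carry the E-box CACGTG, the site through which a MAX-containing complex silences them in somatic cells. Of the genes shown, Tdrd9 and Stag3 were higher in Rpl22-/- and hold the E-box, Ddx4 holds it but was barely detected, and Tdrkh was higher without it. These 4 were picked with their levels known, so no share can be read from them. Among 8 genes of the other germline lists that differed between the genotypes, 5 had a promoter entry and 1, Stag3, held the E-box. They are Tdrd9 (GRCm38.p6, chr12:111971309-111971558, plus strand), the meiotic cohesin gene Stag3 (chr5:138280259-138280508, plus strand), the member Ddx4 (chr13:112652311-112652560, minus strand) and the Tudor gene Tdrkh (chr3:94412994-94413243, plus strand), from RefSeq, read 5′ to 3′. Capitals mark CACGTG, which reads the same on both strands, and the E2F-type hexamer TCCCGC or its reverse complement GCGGGA, which does not overlap it.
Tdrd9: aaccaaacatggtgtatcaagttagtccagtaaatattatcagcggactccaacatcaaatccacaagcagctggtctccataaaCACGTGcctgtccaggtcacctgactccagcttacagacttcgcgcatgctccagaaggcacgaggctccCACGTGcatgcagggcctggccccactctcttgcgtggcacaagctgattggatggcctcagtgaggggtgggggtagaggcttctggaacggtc
Stag3: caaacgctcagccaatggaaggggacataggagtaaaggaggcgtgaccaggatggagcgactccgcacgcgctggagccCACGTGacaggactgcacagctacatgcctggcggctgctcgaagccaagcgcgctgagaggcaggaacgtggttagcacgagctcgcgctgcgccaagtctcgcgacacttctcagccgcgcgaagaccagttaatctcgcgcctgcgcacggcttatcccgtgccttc
Ddx4: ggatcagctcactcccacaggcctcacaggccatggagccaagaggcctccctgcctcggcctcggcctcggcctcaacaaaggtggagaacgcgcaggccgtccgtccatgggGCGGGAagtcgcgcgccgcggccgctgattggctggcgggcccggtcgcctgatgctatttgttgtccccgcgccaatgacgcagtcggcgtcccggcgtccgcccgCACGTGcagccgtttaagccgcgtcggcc
Tdrkh: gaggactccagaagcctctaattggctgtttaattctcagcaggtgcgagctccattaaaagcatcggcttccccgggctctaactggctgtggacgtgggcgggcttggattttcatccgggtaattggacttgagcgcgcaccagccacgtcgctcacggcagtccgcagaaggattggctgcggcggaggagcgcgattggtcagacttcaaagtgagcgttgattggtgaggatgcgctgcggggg
The Tdrd9 window held CACGTG at 165 and 95 bases before the start, Stag3 held it once at 170 bases and Ddx4 once at 29 bases. Of 32851 RefSeq promoter windows of this length, 6.02% held CACGTG, 0.429% held it at least 2 times and 16.9% held the E2F-type hexamer. Among the members, 8 of 9 had a promoter entry and 4 of these, Tdrd9, Tdrd1, Ddx4 and Mael, held CACGTG. A gene can have several windows, so the shares above are to be set beside 5 of the members' 13 windows, some of which overlap. These are matches of letters and not measured sites, and the members that share them did not share a level, as the values below show.

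The libraries held 35828500 to 102866127 estimated reads. Rpl22 itself, the targeted gene, was lower in each Rpl22-/- library but far from 0, at 148, 235 and 152 CPM (reads per 1000000, on TMM-scaled library sizes) in Rpl22+/+ and 58.3, 89.9 and 73.5 CPM in Rpl22-/-, or 0.414 of the Rpl22+/+ level in the fit. The deleted part of the gene was not examined. Rpl22+/+ replicate 2 stood apart, with a correlation across genes of 0.940 and 0.948 to the other Rpl22+/+ libraries, which correlated with each other at 0.997. Summed CPM of 10 myeloid and gate markers ranged from 14856 to 20260 in Rpl22+/+ and from 23744 to 28870 in Rpl22-/-, so myeloid RNA was abundant in every library, although Itgam, which encodes CD11b, Ly6g, which encodes part of the Gr1 antigen, and Lyz2 were called lower and Mpo and Elane higher in Rpl22-/-. Ly6c1 (log2 fold change 0.40) and Ly6c2 (0.51), which encode Ly6C, were not called. A gene was called when its edgeR p-value, adjusted over all tested genes, was under 0.05 and its change over 2-fold. Summed CPM of 5 erythroid markers was 77.9 to 117 in Rpl22+/+ and 524 to 1046 in Rpl22-/-, with 5 of 5 called higher. The sums of 6 T and NK cell markers were 23.3 to 29.2 against 10.3 to 13.2 CPM, but the T cell genes Cd3d, Cd3e and Cd3g were called lower while the NK cell genes Ncr1 (log2 fold change 2.49) and Klrb1c (1.07) were called higher. Those of 5 B cell markers were 567 to 721 against 359 to 550 CPM, with 0 called. Sums of 5 platelet markers (3.17 to 5.13 against 3.97 to 4.62 CPM) and 5 stromal or endothelial markers (60.7 to 72.5 against 74.3 to 94.9 CPM) were small beside the myeloid sums. Pecam1 made up most of the stromal sum, while Pdgfrb had 257 reads in Rpl22+/+ and 0 in Rpl22-/- and was called lower, on a matched transcript set that caught 0.390 of the authors' base mean for it. The part of these shifts in the results below was not tested.

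Tdrd9 was near the floor of expression in Rpl22+/+ leukemia and moderately expressed in Rpl22-/- leukemia. The gene (ENSMUSG00000054003) lies on the plus strand of chromosome 12 at 111937993 to 112035288 of GRCm39. It received 40, 41 and 43 reads in the Rpl22+/+ libraries and 1751, 3894 and 4008 reads in the Rpl22-/- libraries. Scaled for depth, these were 0.570, 0.554 and 0.574 CPM against 46.8, 38.9 and 37.8 CPM. All 3 Rpl22-/- libraries were thus far above all 3 Rpl22+/+ libraries, and the Rpl22+/+ values differed among themselves by little, at 0.566 ± 0.0109 CPM against 41.2 ± 4.91 CPM (SD, n = 3 in each). The fitted log2 fold change was 6.18 ± 0.18 (SE), or 72.5-fold, and is given without a test because this contrast led to the choice of the genes. In pooled reads the ratio was 70.1, with an exact 95% interval of 58.7 to 84.3 that covers counting error only. In TPM, the deposited level that corrects for transcript length, Tdrd9 stood at 0.146 ± 0.0220 in Rpl22+/+, above 9.81% of the tested genes, and at 13.1 ± 3.02 in Rpl22-/-, above 57.8% of them. In these bulk samples, more cells with Tdrd9 RNA and more Tdrd9 RNA per cell cannot be told apart.

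**Figure D1:**
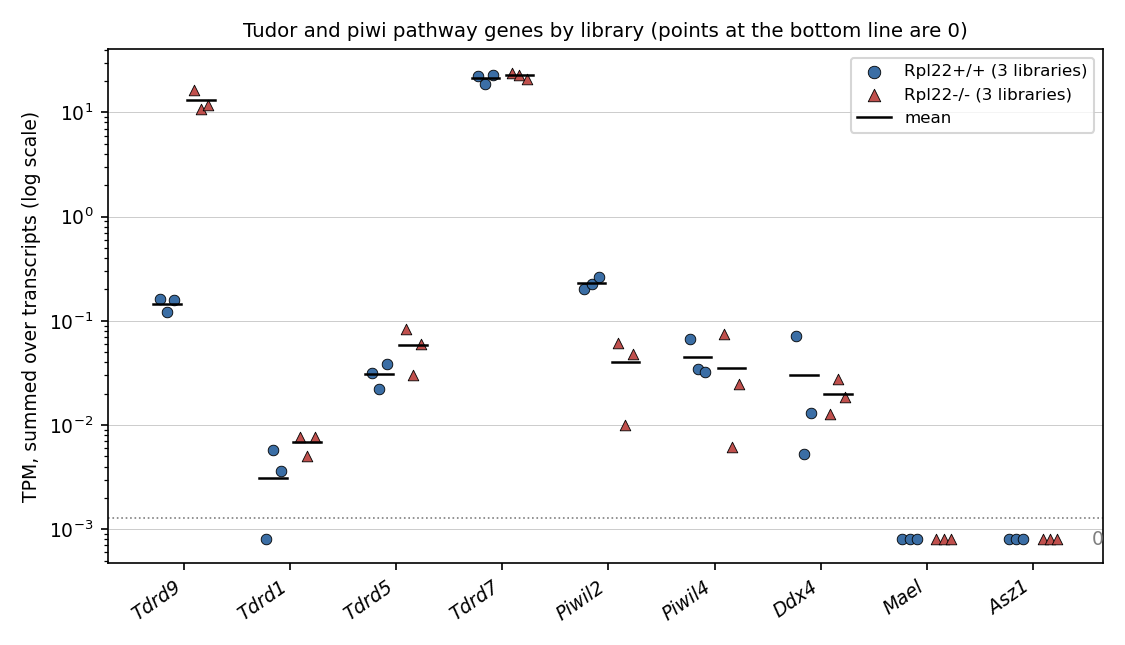
Level of the 9 genes in each of the 6 libraries, in TPM on a log scale, with 1 point per library, bars for the means and points under the dotted line at 0. Tdrd9 sat at 0.121 to 0.161 TPM in Rpl22+/+ and at 10.8 to 16.5 TPM in Rpl22-/-, while Tdrd7 ranged from 18.5 to 24.1 TPM over all libraries and the other genes were under 0.3 TPM in every library.

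Most reads of Tdrd9 were assigned to its coding transcript Tdrd9-201. This transcript of 4809 bases took 100% of the 124 reads of the Rpl22+/+ libraries. In the Rpl22-/- libraries it took 95.8%, 90.9% and 94.8% of the reads and, since some of the other transcripts are short, 80.1%, 83.4% and 83.6% of the TPM. The remaining reads fell on 5 transcripts annotated as noncoding or as targets of decay, all of which were at 0 in Rpl22+/+. Tdrd9-202, a candidate for nonsense-mediated decay, took 2.95%, 2.43% and 3.10% of the Rpl22-/- reads. Tdrd9-203, of the same class, took 0%, 6.28% and 1.33%, so it differed more between these libraries than Tdrd9-202 did. Together the 5 transcripts took 4.17%, 9.10% and 5.21% of the Rpl22-/- reads. In Rpl22+/+ they took 0 of 124 pooled reads, which allows a share of up to 2.42% for counting error only. Each of these shares rests on Salmon's split of reads between overlapping transcripts, whose part in the difference was not tested.

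**Figure D2:**
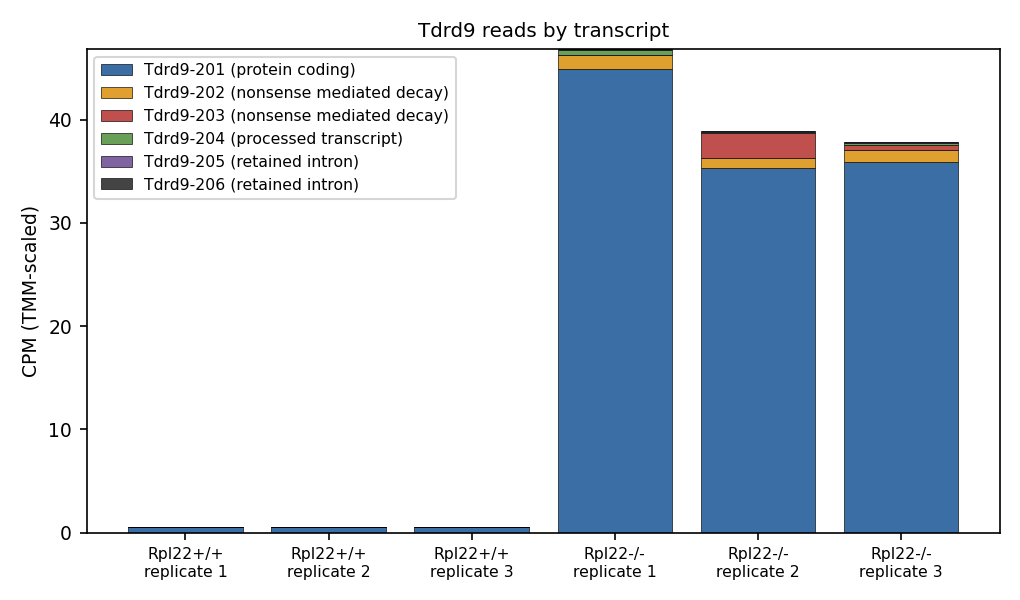
CPM of Tdrd9 (TMM-scaled) in each library, with stacked bars for its 6 annotated transcripts. The coding transcript Tdrd9-201 makes up 90.9% to 95.8% of each Rpl22-/- bar and all of the short Rpl22+/+ bars.

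Genes next to Tdrd9 showed no change of this size. The nearest tested gene, Atp5mpl, which encodes a small subunit of the mitochondrial ATP synthase, ends 4.58 kb before Tdrd9 and had a log2 fold change of 0.16 ± 0.24 (edgeR adjusted p = 0.684). Rd3l, which lies within Tdrd9, had 0 reads in all 6 libraries. The other protein-coding genes between Tdrd9 and the next tested gene had 2 reads in Rpl22+/+ and 3 in Rpl22-/- for Aspg, 1 and 1 for Kif26a and for Tmem179, and 0 for A530016L24Rik. Reads of Tdrd9 were thus not accompanied by reads of its silent neighbors. Of the 5 tested genes on each side, Klc1 (-0.19), Xrcc3 (0.01), Zfyve21 (-0.08), Ppp1r13b (0.42), Atp5mpl, Inf2 (0.17), Adssl1 (0.03), Siva1 (0.05) and Akt1 (-0.29) were not called on these log2 fold changes, some of which turn sign under other scalings. Zbtb42, 610 kb beyond Tdrd9, fell by 1.13 ± 0.18 on the log2 scale (edgeR adjusted p = 0.00521), a value near the 2-fold limit that came to -0.98 both with no composition factor and without Rpl22+/+ replicate 2, with an adjusted p of at most 0.0325 in all 15 alternatives. That was 1 of 10 neighbors called, beside 17.5% of the 16656 tested genes (8.93% higher and 8.54% lower in Rpl22-/-). The median log2 fold change over the 559 tested genes of chromosome 12 was 0.05, and over all tested genes 0.07.

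**Figure D3:**
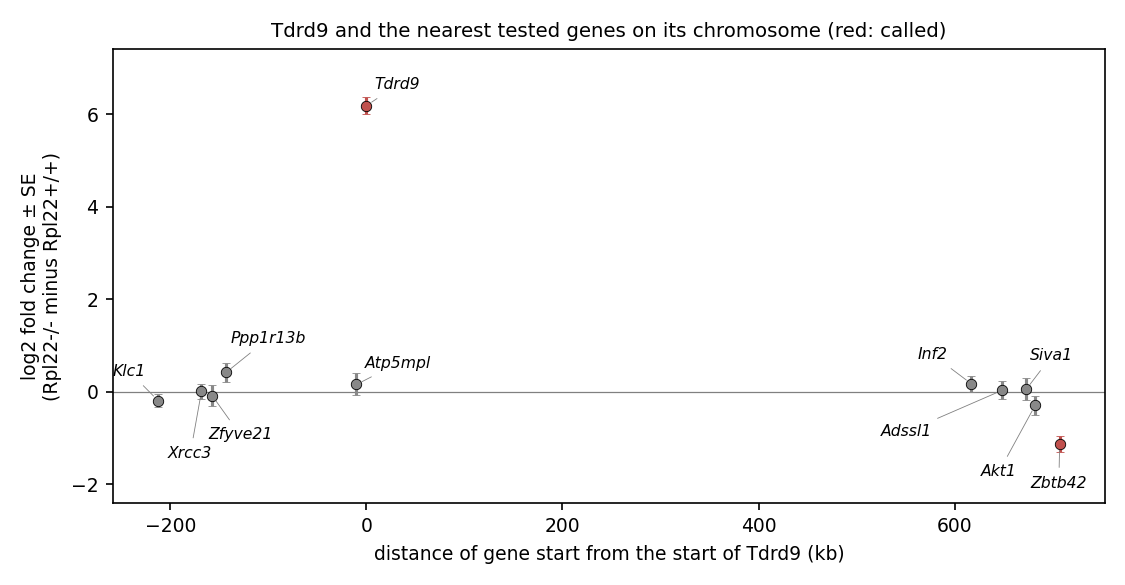
Log2 fold change (Rpl22-/- minus Rpl22+/+, bars show the SE) of Tdrd9 and of the 5 tested genes nearest to it on each side, by distance of the gene start from the start of Tdrd9 in kb. Tdrd9 stands at 6.18, and its neighbors lie between -1.13 and 0.42.

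Of the 2 Piwi genes of the list, only Piwil2 could be tested, and it was lower in Rpl22-/-. Its product, MILI, loads the primary piRNAs and cuts transposon RNA. The gene (ENSMUSG00000033644, chromosome 14, 70609926 to 70666832, minus strand) had 52, 79 and 73 reads in Rpl22+/+ and 8, 4 and 19 reads in Rpl22-/-. These were 0.741, 1.07 and 0.975 CPM against 0.214, 0.0399 and 0.179 CPM. Every Rpl22-/- library was below every Rpl22+/+ library, and the gene passed the filter on low counts through Rpl22+/+, where it is high. The log2 fold change was -2.74 ± 0.59, a 6.68-fold reduction (edgeR adjusted p = 0.0158, and 0.0140 with no filter on low counts). The pooled read ratio was 0.137 (95% interval 0.0905 to 0.200, counting error only). All its reads in all libraries belonged to the coding transcript Piwil2-201. The level was low in both genotypes, at 0.231 ± 0.0288 TPM in Rpl22+/+, above 13.9% of the tested genes, and 0.0400 ± 0.0268 TPM in Rpl22-/-, above 1.73% of them. The call depended on the scale and on single libraries. On log2(TPM + 1) the log2 fold change was -0.24, below the limit of a call, and on log2(TPM + 0.1) it was -1.26. In counts, the adjusted p was 0.0552 when Rpl22+/+ replicate 3 was left out (log2 fold change -2.70) and 0.0514 when replicate 3 of Rpl22-/- was (-3.02).

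Piwil4, or MIWI2, carries piRNAs into the nucleus, where they direct DNA methylation of transposons. The gene (chromosome 9, 14607526 to 14652036, minus strand) had 7, 8 and 6 reads in Rpl22+/+ and 4, 1 and 4 reads in Rpl22-/-, too few to be tested. At 0.0997, 0.108 and 0.0802 CPM against 0.107, 0.00998 and 0.0378 CPM, the groups overlapped. The pooled read ratio was 0.386 (95% interval 0.156 to 0.878), an interval for counting error that leaves out the spread between libraries. With no filter on low counts, its log2 fold change was -1.10 with an edgeR adjusted p of 0.469. The 757 tested genes of chromosome 9 had a median of 0.34 on this scale.

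The other Tudor genes of the list were either steady or barely detected. Tdrd7, whose product sits in germ granules but also serves in the lens, was the only member with over 1 CPM in every library. The gene (chromosome 4, 45965334 to 46034761, plus strand) stood at 54.9, 62.4 and 58.5 CPM in Rpl22+/+ and at 53.8, 53.4 and 51.3 CPM in Rpl22-/-. The groups did not overlap, but they lay close together, and the log2 fold change of -0.15 ± 0.12 did not pass the test (edgeR adjusted p = 0.406). In TPM, its level was 21.3 ± 2.37 against 22.6 ± 1.51, so the sign of this small difference turned with the scale. Tdrd7 lies on chromosome 4, and the median log2 fold change of the 832 genes tested there was 0.44.

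Tdrd5, needed for the assembly of germ granules in spermatids, had 6, 5 and 7 reads in Rpl22+/+ and 7, 8 and 16 reads in Rpl22-/- (chromosome 1, 156082866 to 156131234, minus strand). Its pooled read ratio was 1.55 (95% interval 0.840 to 2.94), and the CPM of the genotypes overlapped. Tdrd1, a scaffold that binds Piwil2 protein, had 0, 2 and 1 reads against 1, 2 and 3 reads. At 3 against 6 reads in all, the ratio of 1.80 had an interval of 0.384 to 11.1. For neither gene was a difference detectable at this depth, and with no filter on low counts their log2 fold changes were 0.72 and 0.84 (edgeR adjusted p = 0.509 and 0.658).

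The remaining members were at or near 0. Ddx4, the mouse Vasa helicase and a defining marker of germ cells, had 10, 1 and 2 reads in Rpl22+/+ and 1, 6 and 4 reads in Rpl22-/- (chromosome 13, 112734867 to 112789009, minus strand), with a ratio of 0.761 (0.309 to 1.84). Mael, which acts in piRNA production and silencing, and Asz1, a scaffold on the mitochondrial surface of germ cells, had no read in any library. Over the depth of all 6 libraries, 3 reads would amount to 0.00649 CPM, the upper limit that a count of 0 allows for each of them. Ddx4, Mael and Tdrd1, whose promoters hold the E-box, had levels that were low or 0 in both genotypes, and any link between them was not tested.

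Of the 9 genes, 3 could be tested, 4 had too few reads and 2 had none. Tdrd9 was higher, Piwil2 was lower and Tdrd7 was not called, beside 17.5% of all tested genes called. CPM of the genotypes did not overlap for these 3 genes, against 46.1% of all tested genes. Nothing is read from that count, since Tdrd9 was chosen on this difference and Piwil2 passed the filter through Rpl22+/+, where it is high. The order of the levels changed accordingly. In Rpl22+/+ it ran in mean TPM from Tdrd7 (21.3) through Piwil2 (0.231), Tdrd9 (0.146), Piwil4 (0.0448), Tdrd5 (0.0308) and Ddx4 (0.0302) to Tdrd1 (0.00313). The values of Piwil2, Tdrd9 and Piwil4 did not overlap with those of their neighbors above in that order, while those of Piwil4, Tdrd5 and Ddx4 overlapped each other, and those of Ddx4 overlapped Tdrd1. In Rpl22-/- it ran from Tdrd7 (22.6) through Tdrd9 (13.1), Tdrd5 (0.0582), Piwil2 (0.0400), Piwil4 (0.0355) and Ddx4 (0.0197) to Tdrd1 (0.00682). There Tdrd7, Tdrd9 and Tdrd5 did not overlap with one another, Tdrd5 overlapped Piwil2 and Piwil4, and Ddx4 overlapped Piwil2 and Piwil4 but not Tdrd5. The values of Tdrd1 lay below every Ddx4 value.

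Beyond the 9 genes, a few other piRNA pathway genes differed between the genotypes. Of 23 further genes listed for the pathway, 15 were tested, 4 rose and 1 fell, with a median log2 fold change of 0.30 beside 0.07 over all tested genes. That share is to be read beside the 8.93% of all tested genes that were higher and the 8.54% that were lower. DESeq2 called 4 of the 5 genes.

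Rnf17, also known as Tdrd4, encodes a Tudor protein with a RING finger that acts in spermatids. Its level was 0.157, 0.0405 and 0.134 CPM in Rpl22+/+ and 12.4, 6.61 and 10.2 CPM in Rpl22-/-. As for Tdrd9, a gene with hardly a read in Rpl22+/+ was detected in all 3 Rpl22-/- libraries, with 24 against 2205 reads in all and a log2 fold change of 6.44 ± 0.51 (edgeR adjusted p = 0.000365). Rnf17 passed the filter on low counts through Rpl22-/-, where it is high (edgeR adjusted p = 6.64e-05 with no filter). Its log2 fold change was 7.36 with the length offset and 2.45 on log2(TPM + 1). The transcript set used here caught 0.729 of the authors' base mean for Rnf17, against 0.934 for Tdrd9, so its size is the less certain. Tdrkh, a Tudor protein of the mitochondrial surface on which piRNA ends are trimmed, rose from 0.356, 0.338 and 0.294 CPM to 4.25, 3.31 and 3.28 CPM. The groups lay far apart, and the log2 fold change was 3.45 ± 0.25 (edgeR adjusted p = 0.000267).

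Spocd1, a nuclear partner of Piwil4 protein in DNA methylation, and Pnldc1, the exonuclease that trims piRNA ends, rose less. Spocd1 went from 0.211 ± 0.0797 to 0.777 ± 0.185 CPM (log2 fold change 1.86 ± 0.42, edgeR adjusted p = 0.0176) and Pnldc1 from 0.155 ± 0.0184 to 0.432 ± 0.115 CPM (1.45 ± 0.37, edgeR adjusted p = 0.0279). Both stayed under 1 CPM in every library and passed the filter on low counts through Rpl22-/-, where they were higher. With no filter, the edgeR adjusted p of Spocd1 was 0.0206. Both calls were lost when single libraries were left out, with adjusted p of up to 0.0606 for Spocd1 and 0.105 for Pnldc1. On log2(TPM + 1), Spocd1 had a log2 fold change of 0.30 and Pnldc1 of 0.57, and neither was called. Pnldc1 also missed the threshold with no filter (0.0607), with the length offset (0.0511) and by DESeq2 (0.0521), while its log2 fold change in the alternatives on counts stayed between 1.24 and 1.88. Spocd1 lies on chromosome 4, as does Tdrd7.

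Gtsf1, a small zinc finger protein that helps Piwi proteins cut their targets, fell, as Piwil2 did. Its CPM was 2.62, 3.19 and 3.07 in Rpl22+/+ and 0.294, 0.369 and 0.208 in Rpl22-/-, a log2 fold change of -3.34 ± 0.31 (edgeR adjusted p = 0.000588). All Rpl22-/- libraries were below all Rpl22+/+ libraries. The pathway genes with the highest level, the arginine methyltransferase partner Wdr77 (51.2 ± 4.40 against 54.9 ± 0.696 CPM) and its enzyme Prmt5 (41.6 ± 12.4 against 48.6 ± 5.02 CPM), which methylate the arginines that Tudor domains read, were not called (edgeR adjusted p = 0.600 and 0.519). Piwil1, Mov10l1, Tdrd6 and Stk31 had 0 reads in all libraries.

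**Figure D4:**
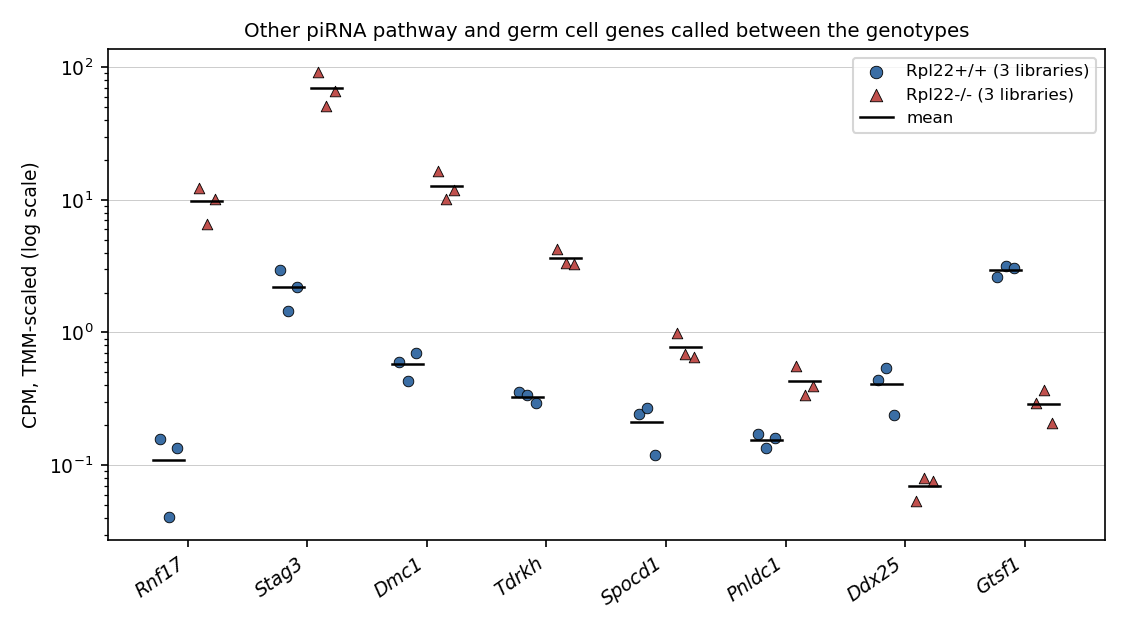
CPM (TMM-scaled, log scale) in each library of the 5 further piRNA pathway genes and the 3 meiotic or germ cell genes called between the genotypes, with bars for the means. Rnf17, Stag3, Dmc1, Tdrkh, Spocd1 and Pnldc1 were higher in all 3 Rpl22-/- libraries, and Ddx25 and Gtsf1 were lower.

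Of 32 meiotic and germ cell genes listed outside the pathway, 10 had no read and 10 were tested, of which 2 rose and 1 fell, with a median log2 fold change of -0.31. Over all tested genes, 8.93% were higher and 8.54% lower, and the median was 0.07. Stag3, the cohesin subunit of meiosis whose promoter is shown above, stood at 2.96, 1.45 and 2.22 CPM in Rpl22+/+ and at 92.7, 51.4 and 66.0 CPM in Rpl22-/- (log2 fold change 4.99 ± 0.37, edgeR adjusted p = 0.000275). Dmc1, the recombinase of meiosis, went from 0.575 ± 0.133 to 12.8 ± 3.24 CPM (4.47 ± 0.30, edgeR adjusted p = 0.00018). The synaptonemal complex gene Syce2, the most abundant gene of the list without a call, was at 16.0 ± 2.72 against 20.5 ± 2.16 CPM (edgeR adjusted p = 0.174), and Sycp1, the oocyte factors Figla and Nobox and the spermatogonial gene Nanos2 had 0 reads. Ddx25, a testis helicase, fell from 0.407 ± 0.153 to 0.0696 ± 0.0142 CPM (-2.48 ± 0.47, edgeR adjusted p = 0.0094), a call lost on log2(TPM + 1), at -0.079, and on log2(TPM + 0.1), at -0.58. Ddx25 passed the filter on low counts through Rpl22+/+, where it is high (edgeR adjusted p = 0.0139 with no filter). Without Rpl22+/+ replicate 2, the library that stood apart, 5 genes of this list were called, with Spo11 (-2.24) and Sycp2 (-2.36) added as lower. Rec8, a meiotic cohesin gene, was added as lower without Rpl22-/- replicate 3 (-3.82, edgeR adjusted p = 0.0383). In Rpl22+/+ replicate 2, Spo11 was at 0.135 CPM against 1.65 and 1.04 CPM in the other Rpl22+/+ libraries. The piRNA genes Tex15 (20.0, 0.554 and 16.3 CPM in Rpl22+/+) and Mybl1 (8.26, 0.689 and 6.76 CPM) dipped in replicate 2 too and were not called.

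The families to which Tdrd9 belongs by its domains were examined next, beside 17.5% of all tested genes called and an overall median log2 fold change of 0.07. Of 21 Tudor-domain genes of somatic cells, all were tested and 1 rose, the mitochondrial anchoring protein gene Akap1 (11.2 ± 3.71 to 27.1 ± 2.13 CPM, log2 fold change 1.27 ± 0.24, edgeR adjusted p = 0.00995). Their median log2 fold change was 0.00. The most abundant of them, the lamin B receptor gene Lbr, passed the test with a change under 2-fold (-0.85 ± 0.16, edgeR adjusted p = 0.00972). So did Phf1 (-0.69, edgeR adjusted p = 0.00887) and Phf20 (-0.54, edgeR adjusted p = 0.0231). Of 17 DExH-box helicase genes, relatives of the Tdrd9 helicase, all were tested and 0 were called by edgeR or DESeq2, with 4 at an unadjusted p under 0.05. Dhx30 (log2 fold change 0.81, edgeR adjusted p = 0.0148) and Dhx33 (0.69, edgeR adjusted p = 0.00819) passed the test with changes under 2-fold. Their log2 fold changes ran from -0.40 to 0.81, with a median of 0.09. The most abundant, the spliceosome helicase gene Dhx15, had a log2 fold change of 0.56 ± 0.20 (edgeR adjusted p = 0.0789).

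**Figure D5:**
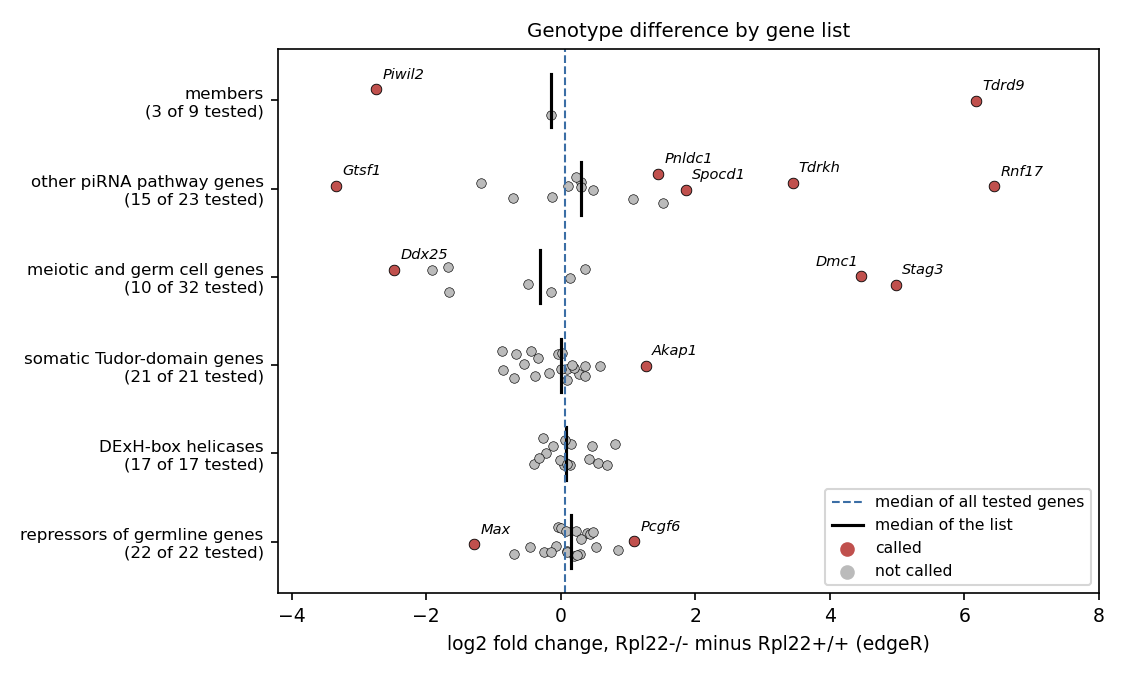
Log2 fold change (Rpl22-/- minus Rpl22+/+) of the tested genes of each list, with 1 point per gene, the list's median as a black bar and the median of all tested genes as a dashed line. The members, the other piRNA pathway genes and the germ cell genes hold points beyond 3 or below -2, while all somatic Tudor-domain genes, DExH-box helicases and repressors lie between -1.3 and 1.3. The lists differ in level. Over 1 CPM in every library were 1 of 3 tested members, 2 of 15 pathway genes and 3 of 10 germ cell genes, against all genes of the other lists.

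Genes known to silence germline promoters were examined last. Of 22 listed, all were tested, 1 rose and 1 fell, with a median log2 fold change of 0.15, beside 17.5% of all tested genes called and a median of 0.07. A further 5 passed the adjusted p but not the 2-fold limit, the deacetylase genes Hdac1 (0.85) and Hdac2 (0.48) and Cbx1 (0.52) upward, and Yaf2 (-0.69) and Rnf2 (-0.45) downward. Max, which encodes a protein that binds CACGTG with its partners, fell from 167, 217 and 179 CPM to 76.6, 79.6 and 75.1 CPM. The groups did not overlap, and the log2 fold change was -1.28 ± 0.15 (edgeR adjusted p = 0.00132). Pcgf6, a subunit of the Polycomb complex that contains MAX, rose from 4.11 ± 1.10 to 8.80 ± 1.23 CPM (1.10 ± 0.24, edgeR adjusted p = 0.0176), a call lost without Rpl22+/+ replicate 2, where its log2 fold change was 0.86, and, with adjusted p of 0.0562 to 0.0661, when either Rpl22+/+ replicate 3 or any Rpl22-/- library was left out. The other 20 listed genes were not called, among them Mga (0.30), E2f6 (0.22), L3mbtl2 (0.29) and Tfdp1 (-0.04). Their edgeR adjusted p was 0.832, 0.409, 0.305 and 0.877. Dnmt1, the maintenance DNA methyltransferase gene and the most abundant of the list, was at 401 ± 82.0 against 525 ± 75.3 CPM (edgeR adjusted p = 0.199). Of the called genes of the other germline lists, 5 of 8 had a promoter entry and 1, Stag3, held CACGTG, while Tdrkh, Gtsf1, Dmc1 and Ddx25 did not. DNA methylation and the binding of these proteins were not measured here.

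Genes with a pattern like that of Tdrd9 over the 6 libraries were many. By Pearson correlation of log2 CPM, 223 of 12898 tested protein-coding genes compared reached an r of 0.99 with Tdrd9, and all share its 6 libraries. The 5 most alike were Cyp26b1 (r = 0.9999), which encodes an enzyme that breaks down retinoic acid and had 0 CPM in Rpl22+/+ and 0.599 ± 0.0423 CPM in Rpl22-/-, Nrg4, Ccdc85a, Dnajc6 and Angptl7. Nrg4, a growth factor gene of the neuregulin family, stood at 15.2 ± 0.639 against 257 ± 28.2 CPM, and Dnajc6, which encodes the clathrin-uncoating protein auxilin, at 1.64 ± 0.0525 against 45.4 ± 5.01 CPM. Ccdc85a was at 0.0822 ± 0.00284 against 3.03 ± 0.159 CPM, and Angptl7, an angiopoietin-like gene, at 0.0274 ± 0.000945 against 36.4 ± 1.98 CPM. With 3 libraries of each genotype, this measure mainly picks genes that separate the genotypes with little spread within them.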

How the data were processed

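RNA of 6 sorted splenocyte samples was sequenced by the authors from poly(A)-enriched, stranded, paired-end libraries, trimmed with Trimmomatic and quantified with Salmon. The authors deposited an estimated count and a TPM per transcript for each library. Tool versions, the transcript set and the strand setting are not given in the sources used here. A further table deposited by the authors holds their DESeq2 comparison. Its fold changes, standard errors, Wald statistics and p-values were not used. Its base mean signal, given here as the authors' mean, and its gene positions on GRCm39 were used. Of 276623 transcripts listed, 136036 (49.2%) were matched to genes of GENCODE vM21 by identifier without version, and they carried 98.0% to 98.1% of reads.

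Gene sums of the estimated counts were rounded. Of 29374 genes with reads, 16656 passed filterByExpr. For the genotype comparison, edgeR 4.0.16 (glmQLFit and glmQLFTest, R 4.3.3, TMM scaling, genotype as sole term) was used. A gene was called at a Benjamini-Hochberg adjusted p under 0.05, over all tested genes, and an absolute log2 fold change over 1. SEs are those implied by the F statistic, and ± after a level is the SD of 3 libraries. CPM use TMM-scaled library sizes. The limit for a count of 0 is 3 counts. Intervals for read ratios are exact (conditional binomial, 95%) and describe counting alone: PCR copies could not be removed without molecular identifiers. The fit was also run on simulated counts, with changes placed only in genes above a minimum mean count. That run tells nothing of genes below it, and no result here rests on it.

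The members and all lists were chosen with earlier results of these data known. Named are all members, Rpl22, in each other list the called genes (at most 3 in each direction) and the most abundant gene, the 5 tested genes nearest to Tdrd9 on each side, and the 5 named genes most correlated with it. Pld6, Rec8, Spo11, Sycp2, Phf1, Phf20, Dhx30, Dhx33, Hdac1, Hdac2, Cbx1, Yaf2, Rnf2, Mga, E2f6, L3mbtl2, Tfdp1, Syce2, Sycp1, Figla, Nobox, Nanos2, Prmt5, Tex15, Mybl1 and genes given at 0 or a few reads were named after their values were seen. The pathway list has 4 genes called higher, all named.

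Same-numbered libraries of the 2 genotypes deviated together from their genotype means (r = 0.57, 0.71 and 0.13 over 13202 genes; libraries of unlike numbers reached 0.43, for Rpl22+/+ replicate 3 with Rpl22-/- replicate 1), so a fit with the replicate number as a block was an alternative. The others were DESeq2 size factors, no composition factor, no filter, genes averaging 50 counts or more, DESeq2 1.42.0, limma 3.58.1 (log2(TPM + 1), log2(TPM + 0.1)), average transcript length as an offset, and leaving out each library.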

Additional observations from a re-analysis of the deposited data

How the results depend on the processing

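Tdrd9 was higher in Rpl22-/- in all 15 alternatives, with log2 fold changes of 3.60 to 6.37. The calls of Rnf17, Tdrkh, Gtsf1, Stag3, Dmc1, Akap1 and Max held in all 15 as well. The number of genes called was 1605 on log2(TPM + 1), against 2911, and 2218 to 3431 with a library left out. With no composition factor, higher genes made up 59.7% of the calls, against 51.1%, and the median over all tested genes was 0.19 in place of 0.07. Counts of called members below include Tdrd9, whose call is a description and no test. On log2(TPM + 1), 1 member and 3 other piRNA pathway genes were called. A mean of at least 50 counts gave the same numbers with 2 members and 9 pathway genes tested, since Piwil2, Spocd1 and Pnldc1 were removed by that filter. On log2(TPM + 1), 1 repressor was called, and on both TPM scales 1 DExH-box helicase, Dhx30, was. With no composition factor, 0 neighbors of Tdrd9 were called. With a library left out, calls ranged from 1 to 2 members, 3 to 6 other piRNA pathway genes (6 without Rpl22+/+ replicate 2, with Pld6 added), 3 to 5 germ cell genes, 1 to 3 somatic Tudor-domain genes, 1 to 2 repressors, 0 to 1 neighbors and 0 DExH-box helicases. The replicate block gave 3179 called genes and 2 called members, with Piwil2 at -2.87 (adjusted p = 0.0168), and it changed no call in any list. Small differences turned sign. Tdrd7 was at 0.087 on log2(TPM + 1) and 0.091 on log2(TPM + 0.1). Among the neighbors, Xrcc3 was at -0.024 with DESeq2 size factors, -0.029 with a mean of at least 50 counts and -0.026 by DESeq2, and between -0.060 and 0.072 with a library left out. Zfyve21 was at 0.060 with no composition factor and at 0.032 and 0.037 on the TPM scales, and between -0.19 and 0.083 with a library left out. Adssl1 was at -4.43e-05 with a mean of at least 50 counts. With a library left out it ranged from -0.084 to 0.18, Atp5mpl from -0.013 to 0.37 and Siva1 from -0.081 to 0.29. The cause was not tested in any of these cases. Depth limits the low members, since in the shallowest library, Rpl22-/- replicate 1, 3 reads amount to 0.0802 CPM.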
